A study of Mus musculus with 12 samples.

Results

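The 10 genes described here are RNA markers of the hepatic stellate cell and of the myofibroblast it can become: Acta2, Tagln, Myl9, Des, Pdgfrb, Pdgfra, Reln, Cygb, Rgs5 and Hand2. They were chosen by name, and every transcript listed for them in the protein-coding table was taken, which gave 17 of 29883 transcripts and 10 of 14188 genes. Liver RNA of 12 mice was sequenced after ribosomal RNA was removed, 6 mice of the PZH group and 6 of the control group. All 12 were male C57BL mice (strain C57BL/8 in the labels, C57BL/6J in the study's methods), 6 weeks old at the start and killed after 8 weeks. All of them received repeated intraperitoneal injections of CCl4 mixed with corn oil, a solvent that injures hepatocytes. The PZH group was also given PZH (Pien Tze Huang, a traditional Chinese medicine) into the stomach every day, and the control group was given water. No uninjured mice were among these 12, so each difference is between injured livers with and without PZH. Expression is given as FPKM, fragments scaled to the length of the transcript and the size of the library, and the FPKM of a gene is the sum over its listed transcripts.

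Hepatic stellate cells lie between hepatocytes and the sinusoidal endothelium, where they store vitamin A. After injury they can lose their retinoid droplets, take on smooth muscle actin and other contractile proteins, and become matrix-secreting myofibroblasts, a change driven in part by PDGF receptor and TGF-beta signalling. Genes of the contractile programme are classic targets of serum response factor (SRF), which binds the CArG box, and of its myocardin-related cofactors, which respond to the pool of free actin. Whole liver was measured, so fewer cells of a type and less RNA per cell cannot be told apart.

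The CArG boxes upstream of the contractile markers are shown because they are the sequence element those genes have in common in textbooks. RefSeq windows of 250 bases before the gene start (GRCm38.p6) were on hand for 7 of the 10 genes, and those of Tagln, Cygb and Pdgfrb were not used here. Each window was searched for the 10-base CArG box, either in its strict form with only A or T in the 6-base core, or in a like form with 5 of the 6. The pattern of either form is its own reverse complement, so 1 search covered both strands. Acta2 held 2 boxes of the like form and Myl9 held 1 of each form. In the lines below the box is in capitals, 10 flanking bases stand on either side, and each sequence reads 5′ to 3′ on the strand of its gene.
Acta2, like form, chr19:34255438-34255467, minus strand: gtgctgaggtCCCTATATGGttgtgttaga
Acta2, like form, chr19:34255388-34255417, minus strand: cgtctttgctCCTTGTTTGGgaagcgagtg
Myl9, strict form, chr2:156775293-156775322, plus strand: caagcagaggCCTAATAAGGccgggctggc
Myl9, like form, chr2:156775355-156775384, plus strand: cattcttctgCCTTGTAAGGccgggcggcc

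The boxes of Acta2 began 84 and 34 bases before the RefSeq start, and those of Myl9 began 161 and 99 bases before it. GENCODE M21 starts Acta2-201 further upstream than RefSeq does and places both Acta2 boxes inside its first, untranslated exon, whereas both Myl9 boxes lie outside the annotated exons of Myl9. The windows of Des, Pdgfra, Reln, Rgs5 and Hand2 held neither form, which says only that these letters were not in these 250 bases. Over all 32851 RefSeq windows, 1.47% held a strict box and 8.59% held either form. A match of this kind is a description of the sequence and not a measured binding site.

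Of the contractile genes, Tagln and Acta2 were lower in the PZH mice and Myl9 did not pass. Tagln encodes transgelin, an actin-binding protein of smooth muscle and myofibroblasts (chr9:45929619-45936058, minus strand). The PZH mice had a lowest, median and highest Tagln FPKM of 3.75, 5.26 and 8.22, and the control mice 12.5, 15.4 and 20.8. All 6 PZH mice were below all 6 control mice. Mean levels were 5.54 ± 1.51 with PZH and 16.0 ± 3.35 without it (SD, n = 6 each), 2.89 times as high in the controls. On the log2(FPKM + 1) scale used for every difference below, Tagln fell by 1.38 (SE 0.16, 95% interval -1.73 to -1.04, limma adjusted p = 3.97e-05).

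Acta2 encodes alpha smooth muscle actin, the usual histological marker of the myofibroblast (chr19:34241090-34255590, minus strand). Its FPKM was 3.48, 5.97 and 11.5 at the lowest, median and highest in the PZH mice and 6.51, 14.2 and 16.7 in the control mice. The groups overlapped: 3 PZH mice were below every control mouse, all 6 were below the control median, and the lowest control value came from control mouse 6. The means were 6.51 ± 2.99 and 12.9 ± 3.77 (SD, n = 6 each), and Acta2 fell by 0.92 (SE 0.26, 95% interval -1.49 to -0.35, limma adjusted p = 0.0123).

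Myl9, a regulatory light chain of smooth muscle myosin, had the lowest level of the contractile genes. The PZH mice had 1.45, 2.33 and 3.27 FPKM (lowest, median and highest) and the control mice 2.02, 3.47 and 4.02. All 6 PZH mice were below the control median, but only 1 was below the lowest control mouse, again control mouse 6. The difference of -0.34 (SE 0.15, 95% interval -0.66 to -0.02) did not pass (limma adjusted p = 0.0763).

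Des encodes desmin, the intermediate filament of muscle cells and a marker of rodent stellate cells (chr1:75360329-75368579, plus strand). Its FPKM was 1.16, 2.104 and 2.65 (lowest, median and highest) in the PZH mice against 2.58, 3.20 and 3.69 in the control mice. In 5 of the 6 PZH mice it was below every control mouse. Des fell by 0.47 (SE 0.12, limma adjusted p = 0.00685), with means of 2.05 ± 0.511 and 3.19 ± 0.485 FPKM (SD, n = 6 each).

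**Figure D1:**
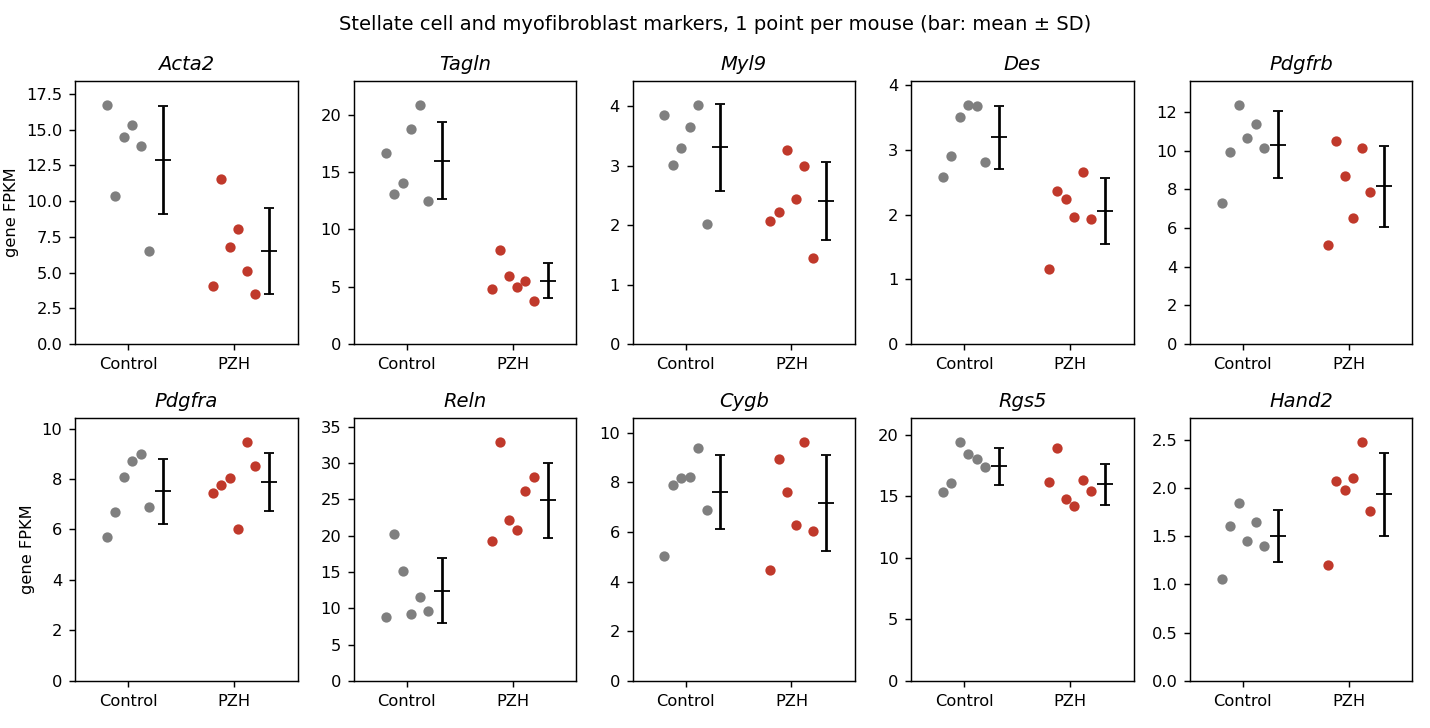
FPKM of each of the 10 genes (vertical axes, linear and starting at 0, with a scale of their own) in the 6 control and 6 PZH mice, 1 point per mouse in order of mouse number, with the mean ± SD as a bar beside the points. Tagln is the only panel in which the groups do not overlap, Reln is higher in 5 of 6 PZH mice than in any control mouse, and Des is lower in 5 of 6.

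The PDGF receptors did not pass in either direction. Pdgfrb, the receptor that stellate cells raise as they are activated in classic models, was 5.14, 8.29 and 10.5 FPKM (lowest, median and highest) in the PZH mice and 7.27, 10.4 and 12.4 in the control mice, with 5 of 6 PZH mice below the control median. Its difference was -0.32 (SE 0.16, 95% interval -0.66 to 0.02, limma adjusted p = 0.113). Pdgfra, which marks mesenchymal cells of the liver more broadly, was 6.03, 7.90 and 9.48 FPKM in the PZH mice and 5.69, 7.48 and 8.99 in the control mice, and the groups lay across each other. Its difference was 0.07 (SE 0.11, 95% interval -0.18 to 0.31, limma adjusted p = 0.674), and it was 0.24 after scaling of the libraries.

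Among the genes taken here as markers of the quiescent stellate cell, Reln was higher in the PZH group while Cygb and Hand2 did not pass. Whether they are particular to the quiescent state, and not to stellate cells in general, was not tested. Reln encodes reelin, a secreted glycoprotein that in liver is made by stellate cells (chr5:21884454-22344702, minus strand). Its FPKM was 19.2, 24.2 and 33.0 (lowest, median and highest) in the PZH mice and 8.76, 10.6 and 20.2 in the control mice. In 5 of the 6 PZH mice Reln was above every control mouse, and the overlap came from control mouse 2, which had the highest control value, and PZH mouse 1, which had the lowest PZH value. The mean was 24.9 ± 5.16 with PZH and 12.4 ± 4.47 without it (SD, n = 6 each), a ratio of 2.005. Reln rose by 0.98 (SE 0.19, 95% interval 0.57 to 1.40, limma adjusted p = 0.00123).

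Cygb encodes cytoglobin, an oxygen-binding protein found in quiescent stellate cells. It was 4.46, 6.96 and 9.64 FPKM (lowest, median and highest) in the PZH mice and 5.05, 8.04 and 9.39 in the control mice, which is nearly the same range. The difference was -0.09 (SE 0.17, 95% interval -0.45 to 0.27, limma adjusted p = 0.687) and turned to 0.08 after scaling.

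Hand2, a transcription factor of the stellate lineage, had the lowest level of the 10 genes. It was 1.20, 2.02 and 2.48 FPKM (lowest, median and highest) in the PZH mice and 1.06, 1.53 and 1.85 in the control mice. The values of 4 PZH mice were above every control mouse. The difference of 0.22 (SE 0.11, 95% interval -0.01 to 0.46) did not pass on the deposited values (limma adjusted p = 0.111). It was 0.34 and passed after scaling (limma adjusted p = 0.0141).

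Rgs5, a regulator of G protein signalling best known from pericytes, varied least between mice of the 10, with an SD of 1.66 on a mean of 16.0 FPKM in the PZH mice and 1.51 on 17.5 in the control mice. It was 14.2, 15.8 and 18.9 FPKM (lowest, median and highest) in the PZH mice and 15.4, 17.7 and 19.4 in the control mice, with 5 of 6 PZH mice below the control median. The difference was -0.12 (SE 0.08, 95% interval -0.29 to 0.05, limma adjusted p = 0.228) and turned to 0.06 after scaling.

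All 10 genes had a mean of at least 1 FPKM over the 12 mice, so a filter at that level removed none of them. In all, 3 of the 10 genes were lower (Tagln, Acta2 and Des) and 1 was higher (Reln) at a limma adjusted p below 0.05. The same threshold called 32.1% of all 14188 genes lower and 12.7% higher, so 30% and 10% of the markers is close to the share of genes in general. With the criteria of the study, a 2-fold change at an unadjusted p below 0.05, Tagln was the 1 gene called lower and 0 were called higher, against 2.5% and 1.52% of all genes. The 6 PZH values lay wholly below the control values for 1 marker, and wholly above them for 0, whereas 17.9% and 6.46% of all genes were separated in these directions. The median difference was -0.22 over the markers and -0.11 over all genes.

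That shift of all genes moved with the scale of the libraries. Division by a median-ratio size factor brought the all-gene median to -0.001, and the calls over all genes became 19.3% lower and 19.8% higher. Under this scaling the differences of Tagln, Acta2, Des and Reln were -1.21, -0.75, -0.33 and 1.16, and all 4 still passed. The count of markers was then 3 lower and 2 higher, with Hand2 added.

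**Figure D2:**
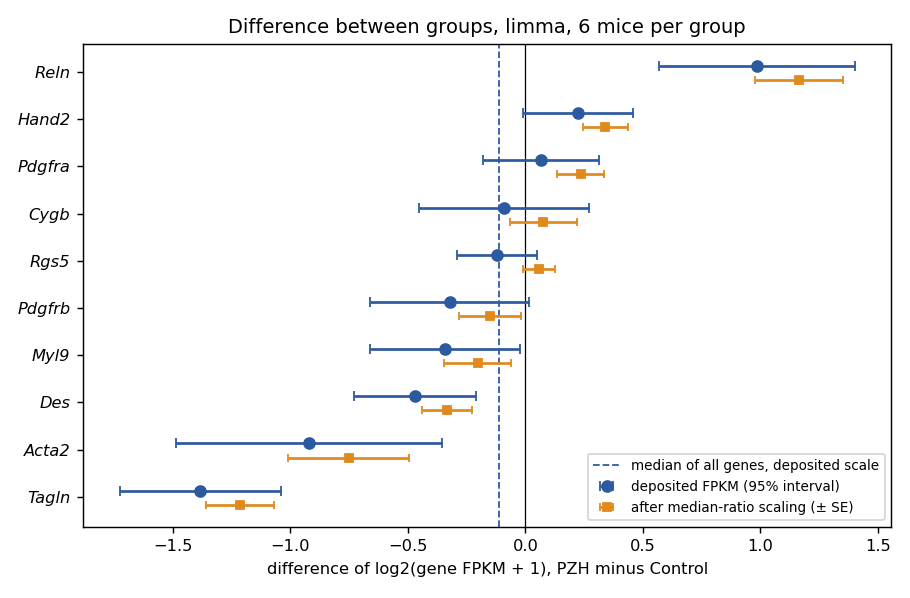
Difference of log2(FPKM + 1) between PZH and control mice for each gene (horizontal axis), as deposited with its 95% interval (circles) and after median-ratio scaling with its SE (squares), and the median of all genes at -0.11 as a dashed line. Tagln, Acta2 and Des lie to the left and Reln to the right on both scales, while Cygb and Rgs5 change side.

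The order of the FPKM levels of the 10 genes, which are per kilobase and so can be set side by side, differed between the groups. In the control mice the order of the means was Rgs5, Tagln, Acta2, Reln, Pdgfrb, Cygb, Pdgfra, Myl9, Des and Hand2. In the PZH mice it was Reln, Rgs5, Pdgfrb, Pdgfra, Cygb, Acta2, Tagln, Myl9, Des and Hand2. Tagln was thus at rank 2 without PZH and at rank 7 with it, and Reln at rank 4 and rank 1. In the control mice each of the first 7 genes overlapped its neighbour in the range of its values, as did Myl9 and Des, and only the steps from Pdgfra to Myl9 and from Des to Hand2 were free of overlap. In the PZH mice Reln was above Rgs5, and Rgs5 above Pdgfrb, without overlap, then came an overlapping run from Pdgfrb to Tagln, and Myl9 was below Tagln without overlap, while Myl9, Des and Hand2 overlapped.

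A ratio of 2 genes within a mouse hardly depends on the scale of its library. For each of the 3 contractile genes over each of Reln, Cygb and Hand2, log2 of the ratio of FPKM + 0.1 was compared between the groups by exact permutation, two-sided, over every way to divide the 12 mice into 6 and 6. The smallest p this can give is 0.0022. The 9 ratios share genes and are not 9 separate results, and these p are unadjusted.

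The ratios to Reln were separated in all 3 cases. Reln alone was already higher by 0.98, so these separations are not a result apart from the rise of Reln. Tagln alone was already separated, and Myl9 alone differed by -0.34 and did not pass. Tagln over Reln was between -2.87 and -1.88 on the log2 scale in the PZH mice (median -2.01) and between -0.62 and 1.01 in the control mice (median 0.61), a difference of -2.57. As linear ratios of mean log values, Tagln was at 0.223 of Reln in the PZH mice and at 1.32 times Reln in the control mice. Acta2 over Reln was between -2.98 and -1.36 in the PZH mice and between -0.95 and 0.92 in the control mice, a difference of -2.07. Myl9 over Reln differed by -1.49, and its highest PZH value of -2.73 was close to the lowest control value of -2.70. Each had an exact permutation p of 0.0022.

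Relative to Cygb and Hand2, which did not pass on their own, Tagln was also lower in all 6 PZH mice than in any control mouse. Tagln over Cygb differed by -1.42 and Tagln over Hand2 by -1.86 (exact permutation p = 0.0022 each). For Acta2 the groups overlapped, with differences of -0.92 over Cygb (exact permutation p = 0.0108) and -1.36 over Hand2 (exact permutation p = 0.0043). Tagln and Acta2 were already called lower alone, so these ratios are not results apart from the falls of those genes. Myl9 over Hand2 differed by -0.79 (exact permutation p = 0.0108). Myl9 over Cygb differed by -0.35, which relabelling reached often (exact permutation p = 0.186). Thus 8 of the 9 ratios were below 0.05 by the unadjusted exact permutation p, and 5 were without overlap. Of single genes, 32.1% were called lower and 12.7% higher, but by the limma adjusted p, which is an unlike threshold. Without overlap, 17.9% of single genes were lower and 6.46% higher. The matching share for ratios of other gene pairs was not computed, so these counts cannot be called particular to the markers.

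**Figure D3:**
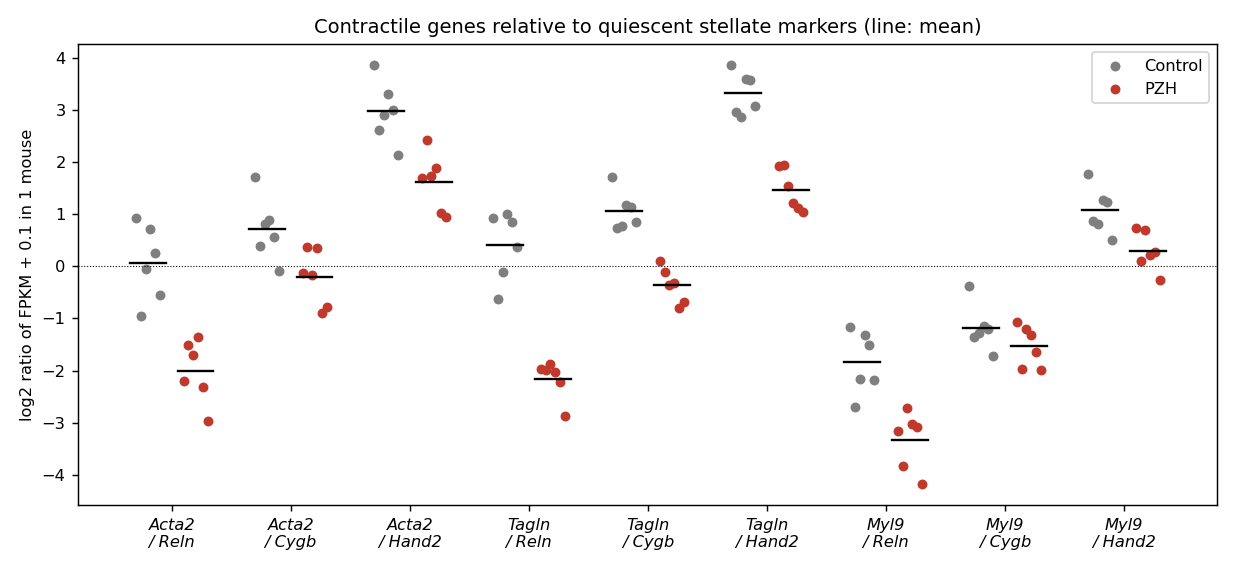
Log2 ratio of each contractile gene to each quiescent marker (vertical axis) in each control mouse (grey) and PZH mouse (red), with the group mean as a line. The 3 ratios to Reln and the other 2 ratios of Tagln show no overlap between the groups, and Myl9 over Cygb lies across both groups.

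At the transcript level 7 of the 10 genes had a single listed transcript, so their values are those above. Limma over all 29883 transcripts called 3 of the 17 lower and 2 higher at the adjusted threshold, beside 14.0% and 5.73% of all transcripts. By the 2-fold criteria it called 1 lower (Tagln-201) and 0 higher, beside 1.99% and 1.24%. Both transcripts of Reln were higher: Reln-201 had 23.4 ± 4.98 against 11.6 ± 4.29 FPKM (limma adjusted p = 0.0048), and Reln-207 had 1.47 ± 0.262 against 0.828 ± 0.211 FPKM (SD, n = 6 each, limma adjusted p = 0.0070). Reln-201 held between 91.3% and 95.2% of the Reln FPKM in every mouse, and Rgs5-201 held at least 98.5% of that of Rgs5.

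Pdgfra had 6 listed transcripts, of which limma called 0, and 0 had an unadjusted p below 0.05. Pdgfra-201 held between 22.2% and 87.3% of the gene's FPKM in a mouse. The lowest share was that of control mouse 2, in which Pdgfra-201 was at 1.49 FPKM and Pdgfra-202 at 4.61 FPKM, while Pdgfra-202 was at most 0.0181 FPKM in every PZH mouse. The sum over transcripts of that mouse, 6.71 FPKM, was within the range of the other control mice.

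**Figure D4:**
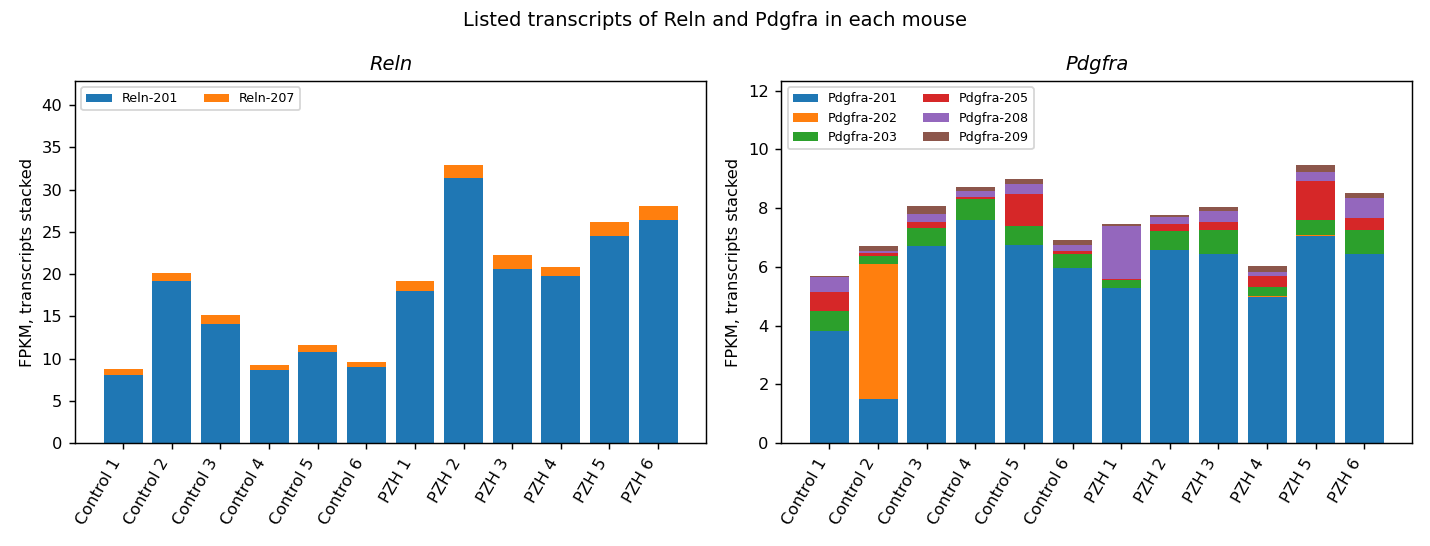
FPKM of the listed transcripts of Reln and Pdgfra (vertical axes, linear, starting at 0), stacked for each of the 12 mice. Reln-201 makes up most of Reln in every mouse, and control mouse 2 is the only one in which Pdgfra-202 is visible.

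Some mice stood at the edge of their group for several of the markers. Control mouse 1 had the lowest control value of 7 of the 10 genes and the highest of 1, Acta2. PZH mouse 1 had the lowest PZH value of 5 genes, and PZH mouse 2 the highest of 5. The median-ratio size factor was lowest of all 12 in PZH mouse 1 (0.875) and highest of the PZH mice in PZH mouse 2 (1.005). That of control mouse 1 (1.03) was the lowest of the controls. The part of library scale in these values was not tested. PZH mouse 1 also had the greatest depth of the 12, estimated at 42.7 M fragments against 26.8 to 35.6 M in the others, and its part in these values was not tested. At these depths the 10 genes corresponded to between 49.5 fragments (Myl9 in PZH mouse 6) and 10917 fragments (Reln in PZH mouse 2). Leaving out PZH mouse 1 brought Hand2 past the threshold (difference 0.30, limma adjusted p = 0.0141), and leaving out control mouse 6 did so for Myl9 (difference -0.44, limma adjusted p = 0.0183).

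Other genes of smooth muscle and the actin cytoskeleton were taken as a list of 32, of which 30 were in the table. Of these 15 were lower and 2 higher at the adjusted threshold, with a median difference of -0.30. Over all genes the threshold called 32.1% lower and 12.7% higher, and the median was -0.11. The largest falls were those of Actg1 (cytoplasmic gamma actin, 50.2 ± 6.996 against 237 ± 70.4 FPKM, difference -2.17), Pdlim7 (a PDZ and LIM domain protein of actin filaments, -1.17), Actb (cytoplasmic beta actin, -1.14) and Tpm4 (a tropomyosin, -1.14). The 2 that rose were Itga8, the integrin alpha 8 subunit of stellate and mural cells (11.7 ± 1.94 against 3.11 ± 0.938 FPKM, difference 1.64), and Mylk, myosin light chain kinase (0.37). After scaling 13 of the list were lower and 3 higher, with a median of -0.19, beside 19.3% and 19.8% of all genes. Of the 27 listed genes with a RefSeq window, 4 held a strict CArG box (Cnn2, Actg1, Vcl and Myl6), as did 1.32% of the 10990 genes of the table with a window.

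The list does not only describe myofibroblasts, since cytoplasmic actins are made by every cell of the liver. Of the genes of vascular smooth muscle, the contractile proteins Myh11 and Cnn1 were low. Myh11, smooth muscle myosin, was at 0.786 ± 0.306 FPKM in PZH mice and 0.702 ± 0.293 in control mice (SD, n = 6 each, limma adjusted p = 0.705), and Cnn1, calponin, at 0.185 ± 0.110 and 0.291 ± 0.265 (limma adjusted p = 0.519). Cnn1 was listed at 0 in 1 control mouse. Other mural markers were at higher levels, such as Abcc9 at 8.07 ± 1.44 and 6.78 ± 0.610 FPKM, and these genes were named after their values were seen.

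SRF itself was lower in PZH mice, as was 1 of its cofactors. The shares of all genes to set beside these and the PDGF ligands were 32.1% lower and 12.7% higher. After scaling the shares were 19.3% and 19.8%. Of all genes, 17.9% were lower without overlap on the deposited values. Srf had 2.77 ± 0.526 FPKM in PZH mice and 6.08 ± 0.858 in control mice (SD, n = 6 each) and fell by 0.91 with no overlap (limma adjusted p = 5.0e-05). Mrtfa, a myocardin-related cofactor, fell by 0.55, and Mrtfb had 8.06 ± 1.23 and 7.66 ± 0.725 FPKM and did not pass on the deposited values (limma adjusted p = 0.663), but was higher by 0.23 after scaling (limma adjusted p = 0.0467). Myocd was not among the listed genes. Of the PDGF ligands, Pdgfa fell by 0.70 and Pdgfb by 0.37, while Pdgfc and Pdgfd did not pass. After scaling Pdgfd was higher by 0.24 (limma adjusted p = 0.0249).

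The other genes listed as markers of the quiescent stellate cell did not move as a block. Whether each of them is particular to that cell or state was not tested. Of the 22 listed, 7 were higher, 4 were lower and 11 did not pass, with a median difference of 0.12, where all genes had 12.7% higher and 32.1% lower. Tcf21, a transcription factor of the lineage (5.14 ± 1.06 against 2.28 ± 0.561 FPKM), rose by 0.91, followed by Vipr1, a receptor for vasoactive intestinal peptide (0.68), and Lhx2, a LIM homeobox factor (0.50). Those that fell were Steap4, a metalloreductase (by 0.92), Pparg, a nuclear receptor of lipid storage (by 0.78), Nes, the filament protein nestin (by 0.77), and Hgf, hepatocyte growth factor (by 0.52). Lrat, the enzyme that esterifies retinol in stellate cells, was at 19.0 ± 1.45 and 17.0 ± 3.74 FPKM and did not pass on the deposited values (limma adjusted p = 0.325). After scaling the list had 11 higher, Lrat among them (0.36, limma adjusted p = 0.0453), and 3 lower, no longer with Hgf, beside 19.8% and 19.3% of all genes.

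Of 13 genes of matrix and activation 6 were lower and 1 higher, with a median of -0.39. Over all genes 32.1% were lower and 12.7% higher, with a median of -0.11. After scaling 5 of the list were lower and 3 higher, beside 19.3% and 19.8% of all genes. Timp1, an inhibitor of metalloproteinases, had between 1.06 and 2.50 FPKM in the PZH mice and between 7.14 and 13.4 in the control mice and fell by 2.13. S100a6, a calcium-binding protein, fell by 1.12, and Lox, the collagen cross-linking lysyl oxidase, by 0.57. Col3a1, the fibrillar collagen III, rose by 0.62 (54.5 ± 9.83 against 35.8 ± 10.1 FPKM). Col1a1, collagen I, was at 23.0 ± 6.84 and 20.3 ± 6.01 FPKM and did not pass (limma adjusted p = 0.556). Of the 4 fibrillar collagen genes in the list, 0 were called lower by limma, and 0 were lower at an unadjusted p below 0.05. After scaling Col3a1 was higher by 0.81 (limma adjusted p = 0.0022) and Col1a2 by 0.59 (limma adjusted p = 0.0395). Col1a1 and Col5a2 did not pass after scaling.

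**Figure D5:**
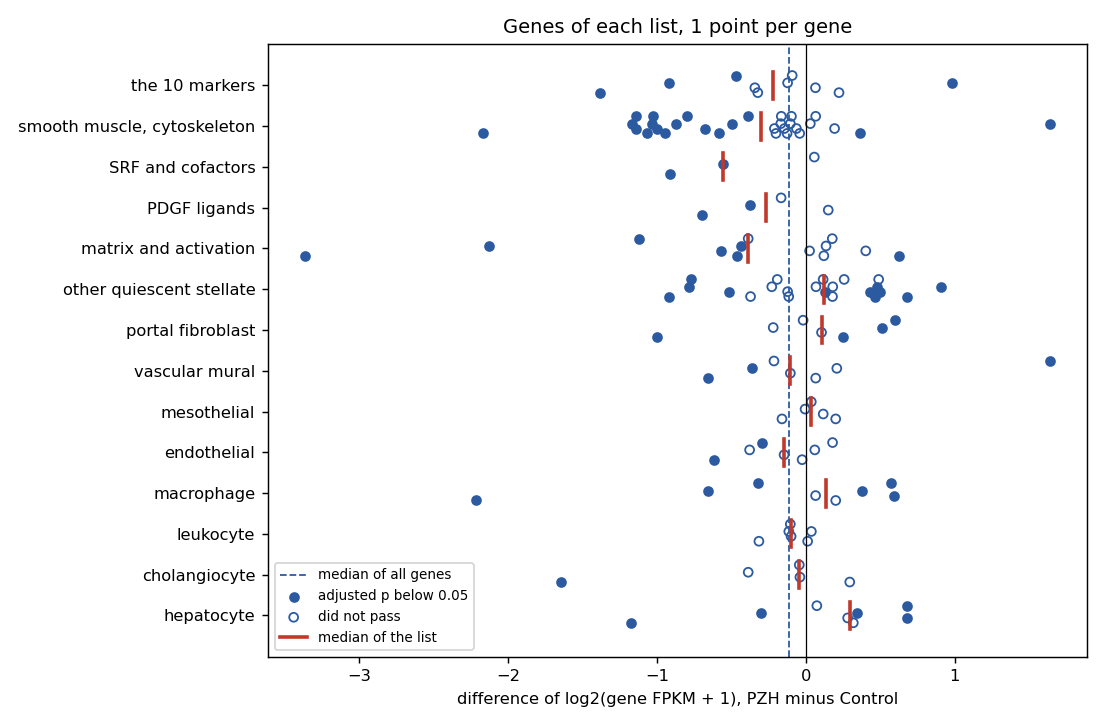
Difference of log2(FPKM + 1) between PZH and control mice (horizontal axis) for each gene of each list, filled where the limma adjusted p was below 0.05, with the list median in red and the median of all genes at -0.11 as a dashed line. The smooth muscle and cytoskeleton list has 15 filled points on the left and 2 on the right, and the other quiescent markers lie on both sides.

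Markers of other cells that the tissue holds moved in both directions beside these genes, and their part in the results was not tested. The shares of all genes to set beside each of these lists were 32.1% lower and 12.7% higher. After scaling they were 19.3% and 19.8%. Of 7 listed portal fibroblast markers 1 was lower (Gas6, -1.0) and 3 higher (Eln 0.60, Mfap4 0.51 and Cd34 0.25), with summed levels of 21.8 to 29.8 FPKM in PZH and 30.4 to 52.5 in control mice. Of 7 vascular mural markers 2 were lower (Mcam -0.66 and Kcnj8 -0.36) and 1 higher (Itga8), with sums of 23.99 to 31.6 and 18.8 to 22.03. Limma called 0 of the 5 mesothelial and 0 of the 6 leukocyte markers, and 0 of either had an unadjusted p below 0.05, with sums of 4.80 to 10.98 and 4.21 to 10.6 for the first and 12.1 to 87.4 and 15.7 to 47.6 for the second.

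Of 7 endothelial markers 2 were lower (Lyve1 -0.62 and Pecam1 -0.29), or 4 without control mouse 6, with sums of 82.6 to 106 FPKM in PZH and 93.6 to 108 in control mice. Of 8 macrophage markers 3 were lower (Marco -2.21, Ly6c2 -0.66 and Cd68 -0.32) and 3 higher (Clec4f 0.60, Vsig4 0.57 and Csf1r 0.38), with sums of 204 to 301 and 197 to 257. Of 5 cholangiocyte markers 1 was lower (Sox9, -1.64), with sums of 66.9 to 133 and 96.9 to 161, while Krt19 and Krt7 did not pass. Of 8 hepatocyte markers 2 were lower (Fgb -1.17 and Hnf4a -0.30) and 3 higher (Alb 0.68, Ttr 0.68 and Apoa2 0.34), with sums of 44597 to 61455 and 27495 to 41687. After scaling, 1 endothelial marker was lower and 1 higher, and both the macrophage and the hepatocyte list had 1 lower and 5 higher, while 1 cholangiocyte and 2 vascular mural markers were higher. Single mice also moved these counts: 2 portal fibroblast markers were lower without control mouse 6, 1 leukocyte marker was lower without PZH mouse 3, and without PZH mouse 1 there were 2 vascular mural markers and 1 endothelial marker higher.

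Some of the 10 genes share annotated sequence with others. The libraries were strand-specific, but whether the quantification used the strand of the reads is not given in the sources used here. By GENCODE M21, 55.0% of the exonic bases of Tagln lie opposite exons of Gm48529 and 6.77% opposite those of Pcsk7, which was at 4.64 ± 1.14 FPKM in the PZH and 2.91 ± 1.80 in the control mice (limma adjusted p = 0.105). For Hand2, 19.6% lie opposite Hand2os1, and for Cygb 8.62% lie opposite Prcd, which was at 0.209 FPKM or less in every mouse. Acta2-201 shares identical stretches of at most 56 bases with Actg1, 47 with Actb and 29 with Actg2, shorter than the 150-base reads.

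In the lncRNA table limma called 8.38% of 1432 transcripts lower and 12.2% higher at the adjusted threshold. Of 6 transcripts that lie within 10 kb of a marker or belong to Carmn, a lncRNA known from smooth muscle, 2 were lower (both of Carmn) and 1 was higher (Gm34030, near Hand2).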

How the data were processed

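Reads were trimmed by the authors (Trimmomatic) and aligned to GRCm38 (HISAT2 2.1.0), and transcripts were quantified with StringTie 1.3.5 on Ensembl release 95. They deposited FPKM per transcript and mouse, values per length and library size that are not counts. Of the 29883 protein-coding transcripts, 29876 were matched to genes by GENCODE M21. FPKM was summed per gene without a filter and compared on log2(FPKM + 1) with limma 3.58.1 in R 4.3.3 over all 14188 genes, with Benjamini-Hochberg adjustment, a procedure tested on simulated data. There 94 of 100 changes of 1 and 55 of 100 changes of 0.5 passed, so a small difference can often fail to pass. Fewer genes were changed in the simulation than were called here. Adding 1 understates changes of low genes. The 17 transcripts and the lncRNA table were fitted likewise. Ratios used exact permutation tests (Python 3.11.15, scipy 1.17.1).

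The genes and lists were chosen with earlier results of these data known. All 10 markers are named, and from each list up to 4 genes per direction with the largest called differences, of which 2 are not reported here. Myh11, Cnn1, Abcc9, Mrtfb, Lrat, Col1a1, Col1a2, Col5a2, Krt19 and Krt7 were named after their values were seen. The lists of other cells hold a few genes that stellate cells also express, and Itga8, Myh11, Cnn1 and Spp1 each stand in 2 lists. No batch is labelled. Depth, from the steps of low FPKM, was 26.8 to 42.7 M fragments. Counts were not recovered, so the error given is the spread between mice. Alternatives were the pseudocount, a filter, scaling, a variance trend, a block for the mouse number, and leaving out 1 mouse at a time.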

Additional observations from a re-analysis of the deposited data

Results flagged for a closer look

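Control mouse 2 stood apart in 1 of the 40 groups of values examined, where chance alone gives about 1 in 20. Its Pdgfra-202 value was 4.61 FPKM, and the gap to the next control mouse was 0.994 of the whole range of the group, above Dixon's 95% critical value for 6 samples. Pdgfra-201 was at 1.49 FPKM in that mouse. No PZH mouse had more than 0.0181 FPKM of Pdgfra-202.

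The lncRNA table lies outside the main measurement. Carmn was looked up in it by name and Gm34030 by its place near a marker. Of the 6 transcripts looked up in these ways 3 differed. Limma called 8.38% of all 1432 lncRNA transcripts lower and 12.2% higher, so such differences were common in this table. Carmn, a lncRNA known from smooth muscle cells, had 2 listed transcripts. ENSMUST00000181155 was at 1.23 ± 0.323 FPKM in PZH mice and 2.04 ± 0.414 in control mice (SD, n = 6 each), a difference of -0.449 on log2(FPKM + 1) (limma adjusted p = 0.0129), and 5 of 6 PZH mice were below every control mouse. ENSMUST00000182244 was at 1.32 ± 0.324 and 1.81 ± 0.204 FPKM, a difference of -0.285 (limma adjusted p = 0.0425), and 3 of 6 PZH mice were below every control mouse. Gm34030, near Hand2, was low in both groups. Its transcript ENSMUST00000211434 was at 0.333 ± 0.0830 FPKM in PZH mice and 0.137 ± 0.0557 in control mice, a difference of 0.228 (limma adjusted p = 0.00912), and all 6 PZH mice were above all 6 control mice. The lncRNA table was fitted on the deposited values only, without scaling or leaving out a mouse. The part of library scale in these 3 differences was not tested.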

How the results depend on the processing

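Tagln, Acta2, Des and Reln kept their direction and their side of the threshold under all 17 alternatives, with limma adjusted p of at most 0.0346. Leaving out 1 mouse gave differences of -1.49 to -1.30 for Tagln, -1.09 to -0.79 for Acta2, -0.52 to -0.37 for Des and 0.90 to 1.13 for Reln. The number of lower markers was 3 to 4 with 1 mouse left out, and the number of higher ones 1 to 2, and by the 2-fold criteria these were 1 to 2 and 0 to 1. The further calls came from Hand2 without PZH 1, Pdgfrb without control 1 (adjusted p = 0.0453), and Myl9 without PZH 3 (adjusted p = 0.0404) or control 6. By the 2-fold criteria a pseudocount of 0.1 gave 2 lower and 1 higher, and scaling gave 1 higher. Scaling gave 2 higher markers at the adjusted threshold and 11 higher genes of the other quiescent list in place of 7. Cygb changed sign under scaling (0.0762) and ranged from -0.1889 to 0.0181 with 1 mouse left out, the latter without PZH 1. Rgs5 changed sign under scaling (0.0597), and Pdgfra ranged from -0.0011 (without control 1) to 0.1305 (without PZH 4). None of these 3 genes passed under any alternative. The cause of these changes was not tested. The 8 ratios kept their side under all alternatives run.

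The replicate block gave 5 lower and 2 higher markers, with Myl9 (adjusted p = 0.0166), Pdgfrb (0.0311) and Hand2 (0.0341) added. Mice share only a number in the labels: the correlation of their deviations was between -0.0732 and 0.0763 for equal numbers, and 1 of 6 mice correlated best with its own number.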
